A study of Mus musculus with 4 samples.

Results

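Type I interferon-stimulated genes were examined as a list of 35 genes, matched by symbol in a table of read counts for 56748 genes. All 35 were found, and all 35 were among the 15320 genes with enough counts to be tested. The list holds members of the OAS and IFIT families, the Mx proteins, the ubiquitin-like protein Isg15 and its partners, cytosolic RNA and DNA sensors, and transcription factors of the response itself. RNA came from lungs of female BALB/cJ mice, 7 weeks old at injection, that carried metastases of 4T1-FLuc, a luciferase-expressing mouse triple-negative breast cancer line given through the tail vein. All samples therefore share the host strain, the immunocompetent host and the 1 cell line. The 2 saline samples were controls, and the 2 ADC/cmLumiOpto samples came from animals treated for 3 weeks with an anti-CD276 antibody that carries mertansine (DM1, a microtubule inhibitor) and with cmLumiOpto. This is a gene therapy vector whose light-gated channel sits in the inner mitochondrial membrane behind a cfos promoter and is opened by light from the luminescent substrate ViviRen. The labels give 16 mg/kg of the antibody-drug conjugate (ADC) and the methods 8 mg/kg. The labels also name the agent cmLumi-Olap and a PBS control, and they describe tumor cells harvested from the lung, where the methods describe dissociated lung tissue and saline. No group with either agent alone was analysed here, so the agents cannot be told apart.

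Type I interferons (the interferon-alpha proteins, interferon-beta and relatives) are secreted when a cell detects foreign or misplaced nucleic acid. They bind the receptor Ifnar1/Ifnar2 on most nucleated cells, whose kinases Jak1 and Tyk2 phosphorylate Stat2. With Irf9 it is part of the complex ISGF3, which binds a promoter element named ISRE and switches on a large set of genes that block virus entry, translation and genome copying. In tumors the same program accompanies cytosolic DNA sensing, some chemotherapies and the priming of T cells by dendritic cells, and it can be read out from tumor cells, stroma and leukocytes alike.

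The sequences below show matches to the core of the ISRE in promoters of some of these genes. The list names genes of the response that ISGF3 drives, so its choice was not independent of this element. RefSeq promoters of the mouse build GRCm38.p6, each reaching from 250 bases before the transcript start to 50 bases after it, were held for 25 of the 35 genes (30 promoters). They were searched on both strands for the ISRE core, which reads GAAA, then 2 bases of any kind, then GAAA. The core stood in 13 of the 30 promoters (43.3%) and in 1131 of all 32851 promoters (3.44%). Counted by gene, 12 of the 25 (48.0%) had it, against 3.99% of all genes. In 6 member promoters it occurred at least 2 times. The element GAS (TTCNNNGAA), known from interferon-gamma responses, was in 6 of the 30 promoters and in 8.3% of all promoters, and in 1 member promoter the matches to both elements overlapped. Stretches around the matches are given 5′ to 3′ on the strand of the gene, and the capitals mark the ISRE core or its reverse complement:
Isg15: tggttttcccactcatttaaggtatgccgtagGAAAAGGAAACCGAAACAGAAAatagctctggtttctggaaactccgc
Oas1a: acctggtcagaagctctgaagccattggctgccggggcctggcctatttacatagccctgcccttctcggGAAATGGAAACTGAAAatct
Oas3: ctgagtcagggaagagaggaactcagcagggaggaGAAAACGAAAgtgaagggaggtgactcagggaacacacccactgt
Bst2: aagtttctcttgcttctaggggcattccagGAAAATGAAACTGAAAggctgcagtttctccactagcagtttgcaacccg
Ifit1: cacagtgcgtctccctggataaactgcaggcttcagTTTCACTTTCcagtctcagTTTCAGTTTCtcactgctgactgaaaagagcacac
Ifit3: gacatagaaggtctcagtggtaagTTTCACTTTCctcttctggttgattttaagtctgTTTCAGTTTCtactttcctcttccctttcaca
Rsad2: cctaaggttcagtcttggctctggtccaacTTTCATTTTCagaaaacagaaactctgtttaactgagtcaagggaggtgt
Trim30a: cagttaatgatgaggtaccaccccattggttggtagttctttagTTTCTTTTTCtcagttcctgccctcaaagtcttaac
Stat2: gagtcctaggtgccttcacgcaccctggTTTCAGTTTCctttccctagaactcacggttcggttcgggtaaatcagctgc

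The Isg15 stretch lies at chr4:156200849-156200928 on the minus strand, where 3 matches follow each other in overlapping steps from 78 bases before the start. The Oas1a stretch (chr5:120907526-120907615, minus strand) and the Bst2 stretch (chr8:71537553-71537632, minus strand) each hold a pair of overlapping matches. Those of Oas3 (chr5:120777690-120777769), Rsad2 (chr12:26456523-26456602) and Trim30a (chr7:104465194-104465273), also on the minus strand, hold 1 match each. On the plus strand, the Ifit1 stretch (chr19:34640749-34640838) and the Ifit3 stretch (chr19:34583349-34583438) each hold 2 separate matches with the same letters, and that of Stat2 (chr10:128270248-128270327) holds 1. Over 90 bases, the corresponding stretch of Ifit3b (chr19:34607745-34607834) was identical to that of Ifit3 at all 90. No match says only that the core is not within these 300 bases.

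Members also lie close together in the genome. The deposited table places Ifit2, Ifit3, Ifit3b and Ifit1 side by side on chromosome 19 between 34528094 and 34627409, in positions read here as those of the build mm39 named in the submitters' processing notes. It places Oas2, Oas3 and Oas1a on chromosome 5 between 120868398 and 121045584, and Oasl2 next to Oasl1 on that chromosome between 115034997 and 115075974. Rsad2 and Cmpk2 are neighbours on chromosome 12, Mx1 and Mx2 on chromosome 16, and so are Parp14, Dtx3l and Parp9. Reads of close copies such as Ifit3 and Ifit3b, or Oas1a and its Oas1 relatives, may have been divided between them, so the values of each are uncertain.

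Total counts ran from 15263375 to 19675436 per sample, and levels are given as CPM, counts scaled to libraries of equal size by edgeR's TMM method. At these depths 3 counts, taken as the floor of detection, correspond to 0.152 to 0.197 CPM, and this floor covers counting error only. Every member had at least 11 counts in every sample. Over all genes the replicates correlated at 0.973 (saline) and 0.970 (ADC/cmLumiOpto) in their log values. The methods give 4 biological samples per group, but nothing in the labels says whether the samples analysed here are separate animals. The p-values therefore measure only the spread between these samples. Markers listed for carcinoma and for alveolar cells were both detected. Summed over 10 carcinoma markers the level ran from 2774 to 3395 CPM, mostly from the keratins Krt8 and Krt18. Whether these came from tumor or lung epithelium cannot be told in bulk RNA. Both treated samples lay above both saline samples for 2 of the 10 (28.1% of all genes) and below for 4 (28.8%). Summed over 8 alveolar markers, the level was 1637 and 360 CPM in saline samples 1 and 2. It was 5993 and 5110 CPM in ADC/cmLumiOpto samples 1 and 2.

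The first question was whether the interferon-stimulated genes differed between ADC/cmLumiOpto and saline lungs. Most estimates were above 0 and none passed the test. The fitted log2 fold change was above 0 for 29 of the 35 genes (82.9%), against 52.0% of all genes tested. Its median over the 35 was 0.53 (quartiles 0.24 and 0.85), against 0.03 over all genes. With p-values of the edgeR quasi-likelihood fit adjusted after Benjamini and Hochberg over 15320 genes, 0 of the 35 had an adjusted p under 0.05, and so had 0.0% of all genes. At an unadjusted p under 0.05, 6 members (17.1%) stood out, a smaller share than the 23.8% of all genes. Of these, 4 were higher (11.4% of members and 11.4% of all genes) and 2 lower (5.71%, against 12.3%). Other tools called more genes: edgeR's exact test called 7.64% of all genes and 1 member, DESeq2 called 8.69% and 1 member, and that member was Oas2 in both. In bulk RNA, a lower level from fewer cells of a type cannot be told apart from less RNA per cell.

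The groups overlapped for most members. Both ADC/cmLumiOpto samples lay above both saline samples in 10 of the 35 (28.6%), close to the share of all genes (28.1%). The 10 were Oas2, Oas3, Oas1a, Trim30a, Ifi35, Usp18, Mx2, Mx1, Samd9l and Isg20. Both lay below in 2 of the 35 (5.71%), Eif2ak2 and Dtx3l, against 28.8% of all genes. With 2 samples against 2, an exact two-sided permutation test cannot give a p below 0.333.

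**Figure D1:**
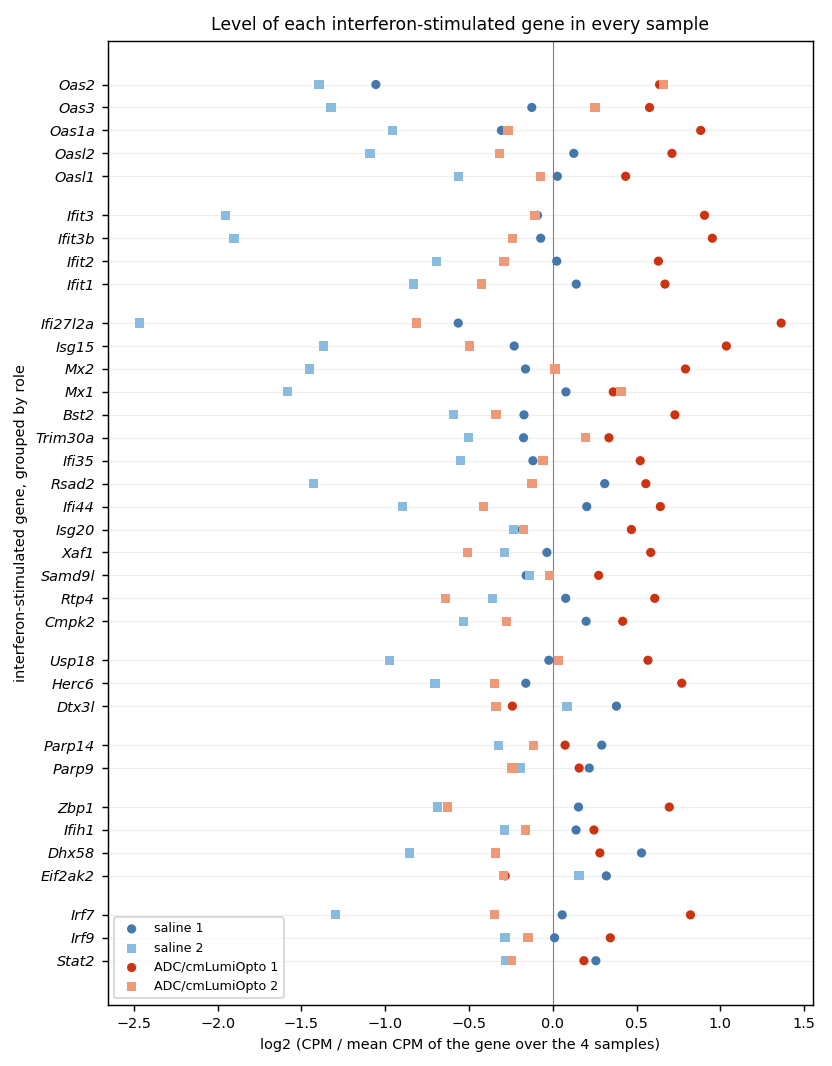
Level of each of the 35 interferon-stimulated genes in each of the 4 samples, as log2 of the CPM over the gene's mean CPM of the 4 samples. Genes are grouped by role, circles are replicate 1 and squares replicate 2, and saline 2 is the leftmost point for 29 of the 35 genes.

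**Figure D2:**
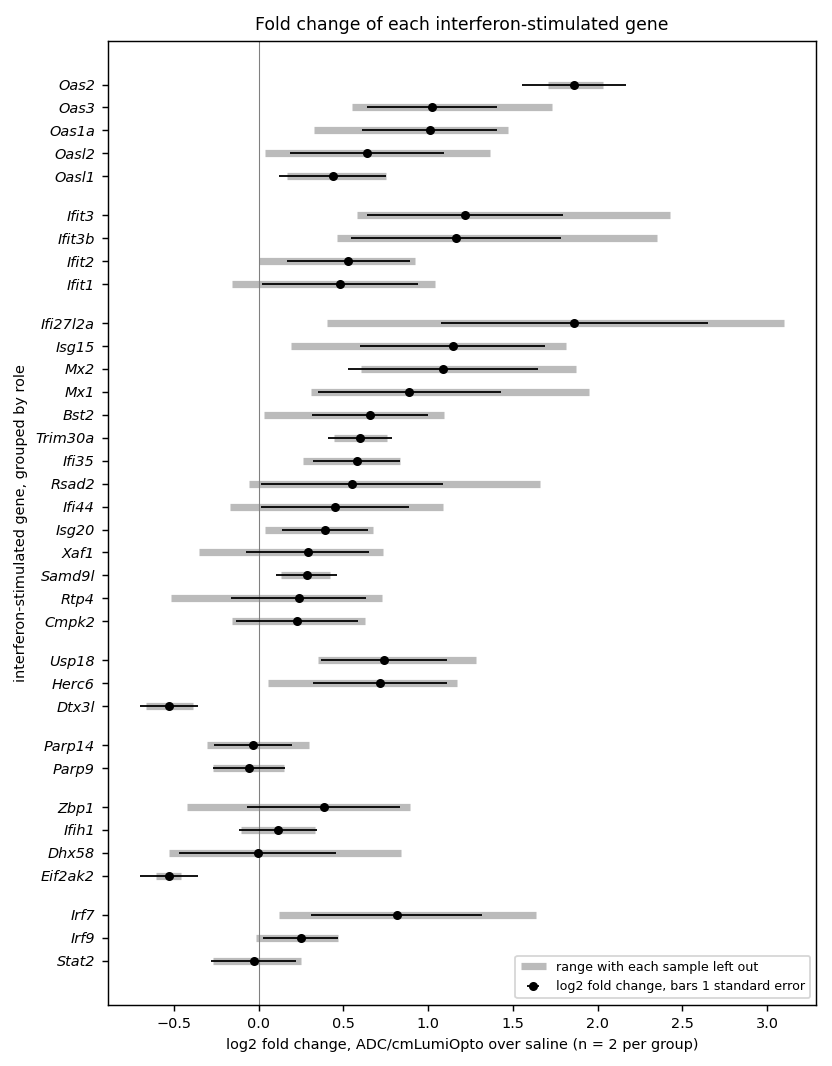
Fitted log2 fold change of each gene, ADC/cmLumiOpto over saline, with 1 standard error on each side (black, n = 2 per group) and the range of the estimates when each sample was left out (grey). The estimate of Oas2 kept between 1.71 and 2.03, while that of Ifi27l2a ran from 0.41 to 3.10.

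The OAS family makes short 2′-5′ linked oligoadenylates on double-stranded RNA, which activate the nuclease RNase L. Oas2 was measured at 3.75 and 2.97 CPM in saline samples 1 and 2 and at 12.1 and 12.3 CPM in ADC/cmLumiOpto samples 1 and 2. Its groups lay far apart and its replicates close together. The group means were 3.36 ± 0.56 and 12.2 ± 0.15 CPM (SD, n = 2). The log2 fold change, given here and below with its standard error, was 1.86 ± 0.31, at an adjusted p of 0.098 in the edgeR quasi-likelihood fit. Over 14 other settings its adjusted p ran from 0.000166 to 0.362 by the tools named with them (edgeR and DESeq2).

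Oas3, a larger OAS enzyme that binds long double-stranded RNA, read 18.3 and 7.95 CPM in saline and 29.7 and 23.7 CPM after ADC/cmLumiOpto. The groups did not overlap, but the saline samples differed from each other by 2.29-fold, more than the 1.25-fold between the treated ones. The log2 fold change was 1.02 ± 0.38 (adjusted p = 0.176, edgeR quasi-likelihood). Oas1a, which carries the paired ISRE matches printed above, read 30.9 and 19.7 CPM in saline and 70.6 and 31.8 CPM after ADC/cmLumiOpto. Here the lower treated sample stood only just above the higher saline sample. Its log2 fold change was 1.01 ± 0.40 (adjusted p = 0.189, edgeR quasi-likelihood). Oasl2 and Oasl1, OAS-like proteins with ubiquitin-like domains, had overlapping groups and log2 fold changes of 0.64 and 0.44. All 5 OAS members had estimates above 0, with a median of 1.01.

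Among the IFIT proteins, Ifit1 binds viral RNA that lacks the host's cap methylation and stops its translation. For Ifit3 the levels were 22.1 and 6.07 CPM in saline and 44.0 and 21.9 CPM after ADC/cmLumiOpto. The groups overlapped: treated sample 2 lay between the saline samples, and saline sample 2 stood 3.64-fold under saline sample 1. For Ifit3 the fitted log2 change was 1.22 ± 0.58 (adjusted p = 0.250, edgeR quasi-likelihood). Ifit3b, its near copy, followed the same order with 7.19, 2.02, 14.6 and 6.39 CPM in saline 1, saline 2, treated 1 and treated 2. Ifit2, a binder of AU-rich RNA, and Ifit1, which holds the cap-sensing pocket, had log2 fold changes of 0.53 and 0.48. All 4 IFIT estimates were above 0 (median 0.85), and in all 4 the groups overlapped, with saline 2 lowest and treated 1 highest.

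Among 14 effector genes all estimates were above 0, with a median of 0.56. In 6 of the 14 both treated samples lay above both controls, against 28.1% of all genes. Trim30a, a ubiquitin ligase of the TRIM family that restrains inflammatory signaling, read 42.8 and 34.0 CPM in saline and 60.9 and 55.3 CPM after ADC/cmLumiOpto. Its treated samples were close together and above both controls. The log2 fold change was 0.60 ± 0.19 (adjusted p = 0.137, edgeR quasi-likelihood). Ifi35, which forms complexes with Nmi, read 40.5 and 30.0 CPM in saline and 63.1 and 42.2 CPM in treated samples, and its log2 fold change was 0.58 ± 0.26 (adjusted p = 0.228, edgeR quasi-likelihood). The groups of Ifi35 were separated by a narrow gap.

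Ifi27l2a, a small hydrophobic protein of mitochondria and the nuclear envelope, had the widest spread: 18.9 and 5.05 CPM in saline and 71.8 and 15.9 CPM after ADC/cmLumiOpto. Treated sample 1 was 4.52-fold above treated sample 2, which itself lay under saline sample 1. The log2 fold change of 1.86 was as large as that of Oas2, but its standard error was 0.79 and its adjusted p 0.213 by edgeR's quasi-likelihood test. Isg15, the ubiquitin-like protein that is attached to other proteins and also secreted, read 24.9 and 11.3 CPM in saline and 59.8 and 20.7 CPM in treated samples. Again treated sample 2 lay between the saline samples. Its log2 fold change was 1.15 ± 0.55 (adjusted p = 0.250, edgeR quasi-likelihood).

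Bst2 (tetherin) holds budding virus particles at the cell surface and is also a marker of plasmacytoid dendritic cells. It read 215 and 161 CPM in saline and 402 and 191 CPM in treated samples, so that treated sample 1 stood apart from the other 3. The log2 fold change was 0.66 ± 0.34 (adjusted p = 0.284, edgeR quasi-likelihood). The Mx GTPases trap viral nucleoproteins, and Mx1 is truncated in most laboratory mouse strains. Mx2 had 29 and 11 counts in saline and 62 and 42 counts after treatment, and Mx1 had 41 and 12 against 55 and 66. Both sets of groups were separate at these low counts, with log2 fold changes of 1.09 ± 0.56 and 0.89 ± 0.54.

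Isg20, an RNA exonuclease, read 26.6 and 25.6 CPM in saline and 41.8 and 26.7 CPM in treated samples, where treated sample 2 stood level with the controls. Samd9l, a restrictor of poxviruses, was the 1 member in which saline 1 was not above saline 2, at 44.0 and 44.6 CPM, with 59.4 and 48.5 CPM in treated samples. Its log2 fold change was 0.28 ± 0.18. Rsad2 (viperin), which makes a chain-terminating nucleotide, and its neighbour Cmpk2, a mitochondrial nucleotide kinase, had estimates of 0.55 and 0.23 with overlapping groups. Ifi44, Xaf1 (an antagonist of the apoptosis inhibitor XIAP) and Rtp4 (a chaperone of membrane receptors) had estimates of 0.45, 0.29 and 0.24, and their groups overlapped too. The gene span of Rtp4 shares 525 bases with Masp1 on the other strand, and no source states whether counting used strand.

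The enzymes around Isg15 conjugation were divided. Usp18 removes Isg15 from proteins and dampens receptor signaling, and it read 12.8 and 6.61 CPM in saline and 19.2 and 13.3 CPM in treated samples. Its groups did not overlap, and the fitted log2 change was 0.74 ± 0.37 (adjusted p = 0.273, edgeR quasi-likelihood). Herc6, the mouse ligase that attaches Isg15, had an estimate of 0.72 ± 0.39 with overlapping groups. Dtx3l, a ubiquitin ligase that works with Parp9, went the other way, with 104 and 84.8 CPM in saline and 67.6 and 63.2 CPM in treated samples. Both treated samples lay below both controls, and the log2 fold change was -0.53 ± 0.17 (adjusted p = 0.142, edgeR quasi-likelihood).

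Parp9, the partner of Dtx3l, did not share that pattern. It read 107 and 80.8 CPM in saline and 103 and 77.9 CPM in treated samples, and its replicates differed more than its groups. For Parp9 the fitted log2 change was -0.06 ± 0.21. Parp9 and Dtx3l overlap over 682 bases on opposite strands, so without strand some reads of one cannot be told from reads of the other. Parp14, a mono-ADP-ribosyltransferase, read 109 and 71.1 CPM in saline and 93.7 and 82.4 CPM in treated samples, with treated values inside the saline range and a log2 fold change of -0.03 ± 0.23.

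Sensors gave mixed estimates. Eif2ak2 (PKR), the kinase that halts translation on double-stranded RNA, read 58.6 and 52.3 CPM in saline and 38.5 and 38.3 CPM after ADC/cmLumiOpto. Treated replicates were almost equal and both lay below both controls. The group means were 55.4 ± 4.43 and 38.4 ± 0.18 CPM (SD, n = 2), and the log2 fold change stood at -0.53 ± 0.17 (adjusted p = 0.139, edgeR quasi-likelihood). Its promoter holds an ISRE core 18 bases after the start, so the estimates of genes with the element lay on both sides of 0. Dhx58 (LGP2), a regulator of the RIG-I-like receptors, had 293 and 104 counts in saline and 272 and 205 counts in treated samples, with treated CPM inside the saline range. Its log2 fold change was -0.0046 ± 0.46, and the sign changed with the scaling. Zbp1, a sensor of Z-form nucleic acid that triggers necroptosis, and Ifih1 (MDA5), a sensor of long double-stranded RNA, had estimates of 0.38 and 0.11 with overlapping groups.

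The transcription factors of the response were Irf7, Irf9 and Stat2. Irf7, which amplifies interferon production, read 52.0 and 20.4 CPM in saline and 88.4 and 39.3 CPM in treated samples, so treated sample 2 again lay between the controls. Its log2 fold change was 0.82 ± 0.50 (adjusted p = 0.359, edgeR quasi-likelihood). Stat2 read 48.9 and 33.7 CPM in saline and 46.5 and 34.5 CPM in treated samples, almost the same pair of values in each group, with a log2 fold change of -0.03 ± 0.25. Irf9, the DNA-binding subunit of ISGF3, had an estimate of 0.25 ± 0.22, and 123 bases of its span are shared with Rnf31 on the same strand.

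Members with and without an ISRE core in the promoter window had similar estimates. The median log2 fold change was 0.63 over the 12 genes with a core, 0.44 over the 13 without, and 0.56 over the 10 whose promoter was not analysed here. Within the 12, values ran from -0.53 for Eif2ak2 to 1.22 for Ifit3. These medians carry no test.

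The second question was how the members varied within a group. Saline 1 exceeded saline 2 in 34 of the 35 genes (50.5% of all genes), and treated 1 exceeded treated 2 in 33 (48.0% of all genes). Both held in 32 of the 35, against 3832 of the 15320 genes tested. The exceptions were Samd9l in the saline pair and Oas2 and Mx1 in the treated pair. Saline 2 was the lowest sample in 29 genes (82.9%, against 30.2% of all genes), and treated 1 was the highest in 27 (77.1%, against 29.8%). Saline 2 was lowest and treated 1 highest at once in 24 members (68.6%), against 14.3% of all genes. The median log2 ratio of saline 1 over saline 2 was 0.65 and that of treated 1 over treated 2 was 0.68, both larger than the median fold change between the groups. In 20 of the 35 the saline replicates differed by at least 1.5-fold with saline 1 above (57.1%, against 14.7% of all genes). In 20 the treated replicates did so with treated 1 above (57.1%, against 9.45%).

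The replicate ratios of the members were related across genes, with Pearson's r of 0.43 and Spearman's rho of 0.44 over the 35, against r of 0.10 over all 15320 genes. These genes share libraries and are not independent. Ifi27l2a was at the extreme of both, with saline 1 at 3.73-fold saline 2 and treated 1 at 4.52-fold treated 2. Oas2 and Eif2ak2 were near the other end, with ratios of 1.26 and 1.12 in saline and 0.98 and 1.01 in treated samples.

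**Figure D3:**
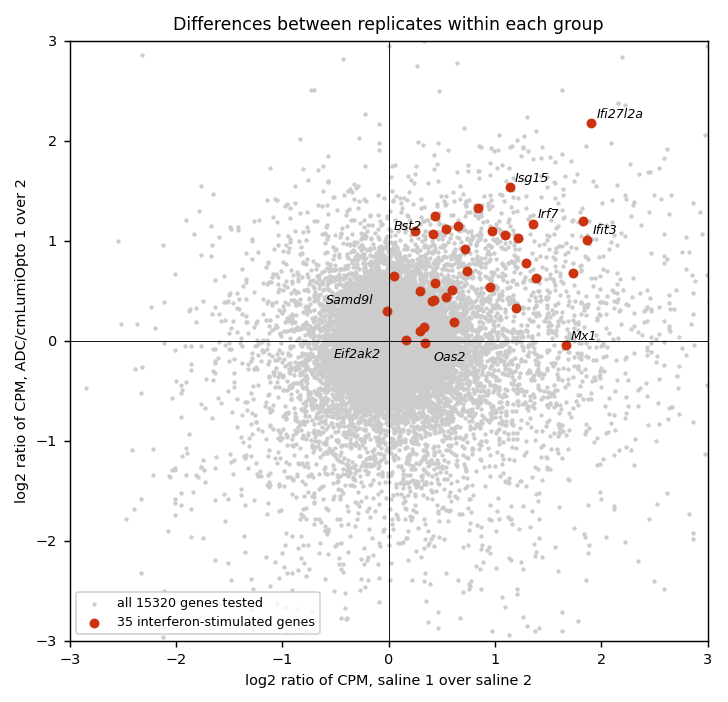
Log2 ratio of the CPM of saline 1 over saline 2 (horizontal) against that of ADC/cmLumiOpto 1 over 2 (vertical) for the 35 interferon-stimulated genes (red) and all genes tested (grey, with 0.1 CPM added, 99 genes outside the axes). Of the 35, 32 lie in the upper right part, where replicate 1 is higher in both groups.

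Because of this order, the comparison between groups depended on the pair of samples chosen. Treated 1 exceeded saline 1 in 29 members (median log2 ratio 0.54) and saline 2 in 33 (median 1.33). Treated 2 exceeded saline 2 in 30 members (median 0.48), but it lay below saline 1 in 25 of the 35 (71.4%, against 49.8% of all genes), with a median log2 ratio of -0.27. Leaving out treated sample 1 reduced the median log2 fold change of the members from 0.53 to 0.04, and leaving out saline sample 2 reduced it to 0.22. Without saline sample 1 it was 0.87 and without treated sample 2 it was 0.86. The number of members at an unadjusted p under 0.05 was then 3 (against 18.1% of all genes), 3 (9.59%), 16 (18.3%) and 17 (24.1%), in the order given, by edgeR's quasi-likelihood test with the lone sample taken to vary like the other group. No member passed the adjusted threshold in these fits.

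Levels between genes are comparable only per length, and RPKM (CPM divided by the deposited gene length in kilobases) was computed for this. Over the 4 samples the median member stood at 9.18 RPKM, the median of all genes tested at 5.19, and 21 of the 35 exceeded the latter. Bst2 had the highest level with a mean of 268 RPKM, and it exceeded the next gene in all 4 samples. Ifi27l2a (60.3 RPKM), Isg15 (41.5 RPKM) and Ifi35 (25.5 RPKM) followed, each above the next in 3 of 4 samples. Oas1a (20.3 RPKM), Parp9 (18.9 RPKM) and Isg20 (16.2 RPKM) came next, and the order of Oas1a and Parp9 was split between the samples. The lowest levels were those of Oas2 (1.75 RPKM), Mx1 (0.72 RPKM) and Mx2 (0.56 RPKM), so the member with the smallest p was among the least abundant.

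The ligands of the pathway were not detectable at this depth. Of 20 type I and III interferon genes none passed the filter, and none had more than 1 count in any sample. Ifnb1, the interferon most widely made outside the immune system, had 0 and 0 counts in saline and 1 and 1 in treated samples. These counts lie under the floor of 3. Receptors and kinases were well measured: 8 of 10 had estimates above 0 (median 0.39), against 52.0% of all genes, and 0 passed the adjusted threshold. The 2 below 0 were the kinases Jak1 (-0.32 ± 0.15) and Jak2 (-0.40 ± 0.16). In each, both treated samples lay below both controls, against 28.8% of all genes. The receptor chains Ifnar1 and Ifnar2 had estimates of 0.10 ± 0.15 and 0.34 ± 0.18. Il10rb, the shared chain of the interferon-lambda receptor, read 25.2 and 16.2 CPM in saline and 35.7 and 35.8 CPM in treated samples (log2 fold change 0.79 ± 0.25, adjusted p = 0.139, edgeR quasi-likelihood). The kinase Tyk2 had an estimate of 0.58 ± 0.19 and the interferon-gamma receptor chain Ifngr1 one of 0.51 ± 0.20, both with separate groups. Only 1 of the 10, Ifnar2, had the order with saline 2 lowest and treated 1 highest that 24 members had. Jak1, Jak2, Ifnar1 and Ifnar2 are named here after their values were seen.

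Upstream sensors and adaptors had 24 of 25 genes tested, 17 with estimates above 0 (against 52.0% of all genes) and a median of 0.14. Rnaseh2c, a subunit of the nuclease that removes RNA from DNA, had 0.83 ± 0.27, Irf3, which switches on interferon-beta, had 0.60 ± 0.21, and the antiviral zinc finger protein Zc3hav1 had -0.44 ± 0.15. Negative regulators split evenly, 7 above and 7 below 0 (median 0.02). Irf2bp2 (-0.78 ± 0.22) and Trim24 (-0.45 ± 0.21), repressors of transcription, lay below in both treated samples, and the phosphatase Ptpn6 (0.71 ± 0.22) lay above. A further list of 67 tested interferon-stimulated genes had 45 estimates above 0 (against 52.0% of all genes) and a median of 0.24. Of the 67, 23 had saline 2 lowest and treated 1 highest, against 14.3% of all genes. Ms4a6b (1.16 ± 0.28), Slfn2 (0.96 ± 0.23) and Oas1b (1.56 ± 0.39) had its smallest p-values, with adjusted p of 0.108, 0.109 and 0.112 by edgeR's quasi-likelihood test. None of these lists had a gene past the adjusted threshold.

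Genes induced mainly by interferon-gamma, the type II interferon of T and NK cells, followed the members only in part. Of 31 tested, 15 had estimates above 0 and 16 below, with a median of -0.03. In 0 of them both treated samples lay above both controls and in 1 both lay below, against 28.1% and 28.8% of all genes. Treated sample 2 was the lowest of the 4 samples in 23 of the 31 (74.2%, against 19.9% of all genes), whereas it was the lowest for 5 of the 35 members (14.3%). Their median log2 level relative to the gene's mean was 0.17, -0.27, 0.46 and -0.64 in saline 1, saline 2, treated 1 and treated 2. For the members it was 0.02, -0.70, 0.58 and -0.25. The smallest p-values belonged to Ido1, a tryptophan-degrading enzyme, which read 3.31 and 2.49 CPM in saline and 20.9 and 1.95 CPM in treated samples, to the immunoproteasome subunit Psmb9 (0.58 ± 0.32) and to the T cell attractant Cxcl10 (0.88 ± 0.52).

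**Figure D4:**
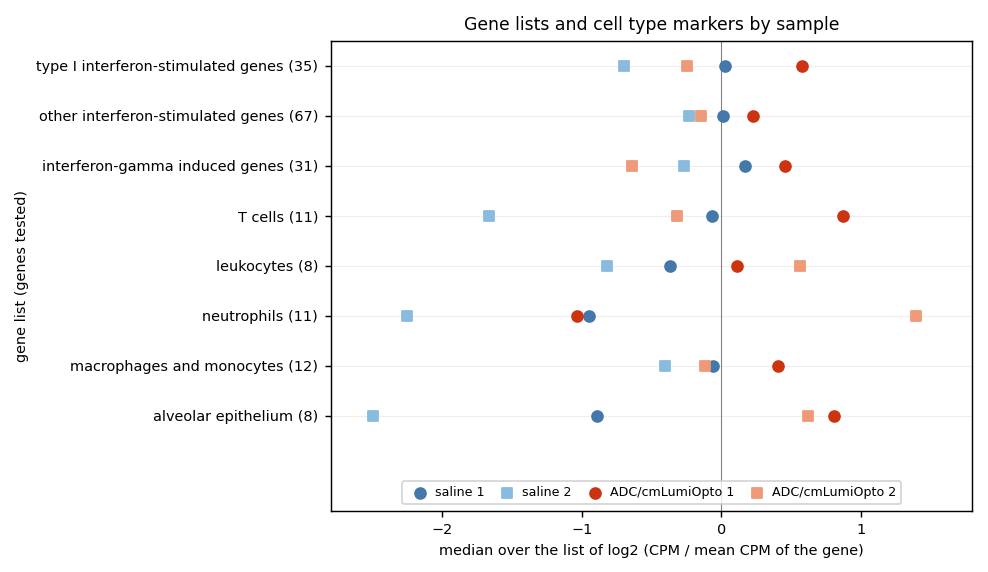
Median over each gene list of log2 of the CPM over the gene's mean CPM of the 4 samples (horizontal), for the 35 members, further interferon lists and cell type markers (number of genes tested in brackets). Members, other interferon-stimulated genes, T cell markers and macrophage and monocyte markers share the order saline 2, treated 2, saline 1, treated 1. Leukocyte and neutrophil markers are highest in treated 2.

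Markers of several cell types followed the order of the members wholly or in part. Summed over 11 T cell markers, the level was 69.6 and 25.99 CPM in saline samples 1 and 2. It was 138 and 62.0 CPM in treated samples 1 and 2, the same order as the median member. Of the 11, 10 had saline 2 lowest and treated 1 highest, as did 14.3% of all genes. Macrophage and monocyte markers (12 genes) summed to 2015, 1687, 2461 and 1831 CPM in saline 1, saline 2, treated 1 and treated 2. Of the 12, 7 had saline 2 lowest and treated 1 highest. Neither list was separate between the groups as a whole. Both treated samples were above both controls for 3 of 11 and 3 of 12 genes, against 28.1% of all genes. Markers of NK cells were sparse, with summed levels of 5.06, 4.04, 19.1 and 8.57 CPM, and Klra4 and Klra8 were at 0 in all samples. Alveolar markers, whose sums are given with the depths above, had saline 2 lowest and treated 1 highest in 6 of 8 genes. All 8 had both treated samples above both controls, against 28.1% of all genes. In the NK and alveolar sums treated 2 lay above saline 1, whereas it lay below saline 1 in 25 of the 35 members.

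Plasmacytoid dendritic cells are known as strong producers of type I interferon. Of their 8 markers, 6 were tested, and 4 of these had saline 2 lowest and treated 1 highest, against 14.3% of all genes. The median log2 level of the 6 relative to the gene's mean was 0.16, -1.39, 0.73 and -0.47 in saline 1, saline 2, treated 1 and treated 2, the order of the median member, and their median log2 fold change was 0.75. Several of these counts were low. Siglech had 16 and 0 counts in saline and 33 and 16 in treated samples, and Klk1 had 11 and 0 against 27 and 6. Cd300c was at 0 in all samples. Estimates were below 0 for 2 of the 6, Pacsin1 (-0.93) and Runx2 (-1.13). Pacsin1 had 14 and 17 counts in saline and 12 and 8 in treated samples. The summed level of 54.6, 67.7, 31.7 and 33.0 CPM came mostly from Runx2 and did not follow the order of the median member. For B and plasma cell markers (7 genes, 4 tested) the medians were -0.08, -1.70, 0.32 and -0.25, also in the order of the members, although 0 of the 4 single genes had it, and the sums ran from 2.90 to 53.3 CPM.

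Leukocyte, neutrophil, endothelial and fibroblast markers followed another order. General leukocyte markers (8 genes) summed to 1275, 921, 1579 and 2131 CPM and neutrophil markers (11 genes) to 1589, 726, 1455 and 9398 CPM, with treated sample 2 far above the others for neutrophils. Endothelial markers (8 genes) ran from 428 to 804 CPM, also highest in treated sample 2. Fibroblast markers (9 genes) summed to 5225 and 3587 CPM in saline and 1823 and 1552 CPM in treated samples. The part of these cell types in the levels of the interferon-stimulated genes was not tested.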

How the data were processed

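Bulk RNA sequencing of polyadenylated RNA was analysed in 2 saline and 2 ADC/cmLumiOpto samples, of 4 per group in the methods. The authors deposited raw counts, the number of reads per gene, without normalization. The methods name HISAT2 and GRCm38, whereas the submitters' processing notes name HISAT2, HISAT, TopHat2 and mm39. Of 52073 gene identifiers shared with a GRCm38 annotation, 1435 had the same span and 50383 the same span length. The counting program and its use of strand are not given in the sources used here. The table has no values of other samples.

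Counts were analysed in R 4.3.3 with edgeR 4.0.16 (filterByExpr at its defaults of 10 counts per sample and 15 in total, TMM factors of 0.973 to 1.044, prior count 0.125). Groups were compared by glmQLFit and glmQLFTest in the newer form (legacy = FALSE) with Benjamini-Hochberg adjustment at 0.05. The standard error is the log2 fold change divided by the square root of F. Alternatives were RLE, library size and upper-quartile scaling, DESeq2 1.42.0, the exact test, the earlier quasi-likelihood form, 2 other filters, a replicate block, a length trend removed through offsets (lowess span 0.3), and each sample left out. CPM and RPKM were computed here, and RPKM uses the deposited gene length.

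The members, the pathway lists and the markers were chosen with earlier results of these data known. Full values are given for up to 10 members with the smallest p in each direction and for the 7 highest per length. From each pathway list the 3 smallest p are named, and Jak1, Jak2, Ifnar1 and Ifnar2 were added after their values were seen. Interferon-stimulated genes are counted beside the share of all genes, and no test was made over a list.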

Additional observations from a re-analysis of the deposited data

How the results depend on the processing

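With 2 samples per group, the 0 members past the adjusted threshold became 1 by DESeq2 and 1 by the exact test (Oas2 in both). With any 1 sample left out it stayed at 0. The count at an unadjusted p under 0.05 (6) ran from 3 (without treated 1, or without saline 2) to 17 (without treated 2) when a sample was left out, and the median log2 fold change from 0.04 (without treated 1) to 0.87 (without saline 1). It stayed between 0.38 (length trend removed) and 0.62 (upper quartile) under the other settings, where upper-quartile scaling also moved the median of all genes to 0.11 and no filter moved it to 0.10. The 12 members with separate groups became 13 by library size or upper quartile and 8 with the length trend removed. Of all genes, 28.1% had both treated samples above and 28.8% below in the main fit. These shares are not given here for the other settings, so 13 and 8 cannot be set against them. The cause of these moves was not tested.

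The fit with the replicate block called 6 members (Oas2, Ifi27l2a, Ifit3, Irf7, Isg15 and Oas1a, all higher) against 4.75% of all genes, and 19 at an unadjusted p under 0.05, where 3943 of the 15320 genes stood. The sources used here name no pairing of same-numbered samples. Over 15320 genes their deviations correlated at 0.0985. With 2 pairs only, whether same-numbered samples share more than a number cannot be told.

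Signs turned for 4 members near 0. Dhx58 (-0.0046) became 0.0073 by RLE, 0.029 by library size, 0.081 by upper quartile, 0.016 by DESeq2, 0.0031 by the exact test, 0.0017 by the earlier quasi-likelihood form, 0.036 with 10 counts in every sample and 0.11 with the replicate block. Parp14 (-0.03) became 0.0069 by library size, 0.051 by upper quartile, 0.0044 with 10 counts in every sample and 0.21 with the length trend removed. Parp9 (-0.06) became 0.029 by upper quartile and 0.0052 with the length trend removed. Stat2 (-0.03) became 0.0086 by library size, 0.057 by upper quartile, 0.0094 with 10 counts in every sample and 0.089 with the length trend removed.

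With each sample left out in turn, the log2 fold change ran from -0.15 to 0.63 for Cmpk2, -0.53 to 0.84 for Dhx58, -0.17 to 1.09 for Ifi44, -0.10 to 0.33 for Ifih1, -0.16 to 1.04 for Ifit1, -0.017 to 0.47 for Irf9 and -0.31 to 0.30 for Parp14. It ran from -0.27 to 0.15 for Parp9, -0.055 to 1.66 for Rsad2, -0.52 to 0.73 for Rtp4, -0.27 to 0.25 for Stat2, -0.35 to 0.73 for Xaf1 and -0.42 to 0.90 for Zbp1. The other 22 members kept their sign in these fits.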
